A study of Mus musculus with 2 samples.

Results

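This account covers 10 genes that mark Müller glia, the radial glia of the retina, or that carry out the support work of these cells: Glul, Slc1a3, Kcnj10, Aqp4, Sox9, Sox2, Hes1, Apoe, Clu and Dkk3. They were taken by gene symbol, 10 of 23356 symbols in the authors' table, and each is represented there by 1 RefSeq transcript. The study sequenced RNA of dissected mouse retinas, 1 triple mutant library and 1 control library, both at postnatal day 15. The mutant was homozygous for loxP-flanked (floxed) alleles of Dnmt1, Dnmt3a and Dnmt3b and carried Rx-Cre, a Cre recombinase transgene driven by regulatory sequence of the retinal gene Rx. The control had the same floxed alleles and no Cre, so a floxed genotype is common to both libraries and Cre is present in the mutant alone. The strain label reads C57BL/7 for the mutant and C57BL/6 for the control. The number of animals behind each library is not stated in the sources used here. With 1 library per genotype no test between genotypes was possible, and all values describe these 2 libraries alone.

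Müller glia span the retina between its inner and outer limiting membranes and are among the last cells born from its progenitors. They clear glutamate released by neurons and turn it into glutamine, carry potassium and water away from active synapses, secrete lipoproteins, and keep several transcription factors of the progenitor state. The products of Dnmt1, Dnmt3a and Dnmt3b methylate cytosine in CpG dinucleotides, Dnmt1 after replication and the other two at new sites. Of the members, Apoe is also made by microglia, Sox2 also by a class of amacrine cells, and Glul, Slc1a3, Aqp4 and Sox9 also by astrocytes. These are examples and not a full list of other sources. In bulk RNA, fewer cells of a type and less RNA per cell cannot be told apart.

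Values are FPKM, fragments per kilobase of transcript scaled to sequencing depth, as the authors estimated them. Brackets after an FPKM or a fold give 95% intervals from the number of fragments behind it. They cover counting error only and treat fragments as independent molecules, so they say nothing of the variation between animals. Dnmt1 had 11.6 FPKM in the mutant library and 21.7 in the control, and Dnmt3a had 56.0 in the mutant and 87.4 in the control. Both were thus lower and not absent. Dnmt3b was low in both libraries, with 0.827 in the mutant and 1.03 in the control. Its log2 ratio, defined below, was -0.15, within the quartiles of all measured genes (-0.16 and 0.15), so it is not called lower. A whole-transcript FPKM also counts exons that Cre leaves in place. An FPKM of 1 stood for some 56.3 fragments per kilobase in the mutant library and 48.3 in the control. Of 15318 genes with a usable estimate, 13280 had at least 1 FPKM in at least 1 library and are called measured. All 10 members were measured, with 1627 to 83411 fragments each in the mutant library and 1054 to 121548 in the control.

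The promoter is where CpG methylation is best known to bear on transcription, and the members differed in how many CpG they hold there. RefSeq promoter sequence on GRCm38.p6, the assembly that mm10 denotes, was at hand for 5 of the 10 members: Glul, Slc1a3, Apoe, Sox2 and Kcnj10. The 4 windows printed are those of the 3 members whose levels differed by at least 1.5-fold and of Sox2, the CpG-richest of the 5, whose levels were nearly equal. Each is the 250 bases upstream of the annotated start on the gene's own strand, and capitals mark CpG.
Glul (chr1:153899679-153899928, plus strand): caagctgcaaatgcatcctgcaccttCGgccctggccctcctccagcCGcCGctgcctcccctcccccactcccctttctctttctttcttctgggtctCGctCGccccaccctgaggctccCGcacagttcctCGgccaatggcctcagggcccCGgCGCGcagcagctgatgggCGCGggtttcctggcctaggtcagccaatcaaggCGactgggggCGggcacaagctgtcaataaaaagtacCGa
Slc1a3 (chr15:8710808-8711057, minus strand): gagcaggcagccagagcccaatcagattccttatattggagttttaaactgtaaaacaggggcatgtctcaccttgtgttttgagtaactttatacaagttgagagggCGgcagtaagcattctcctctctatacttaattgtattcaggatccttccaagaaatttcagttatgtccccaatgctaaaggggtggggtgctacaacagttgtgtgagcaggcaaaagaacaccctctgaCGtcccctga
Apoe (chr7:19699189-19699438, minus strand): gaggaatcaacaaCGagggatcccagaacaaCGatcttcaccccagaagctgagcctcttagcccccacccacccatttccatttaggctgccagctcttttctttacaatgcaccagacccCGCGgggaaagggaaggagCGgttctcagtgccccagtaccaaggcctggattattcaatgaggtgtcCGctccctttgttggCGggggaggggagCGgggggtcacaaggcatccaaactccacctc
Sox2 (chr3:34649745-34649994, plus strand): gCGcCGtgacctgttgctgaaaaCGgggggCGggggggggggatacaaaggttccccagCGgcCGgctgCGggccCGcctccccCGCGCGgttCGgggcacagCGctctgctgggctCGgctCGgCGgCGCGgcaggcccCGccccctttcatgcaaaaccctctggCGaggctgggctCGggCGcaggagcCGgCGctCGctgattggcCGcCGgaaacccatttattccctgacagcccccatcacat
The Slc1a3 window held 2 CpG, fewer than 71.0% of the 32851 windows in the table. The Apoe window held 8 and the Glul window 15, and Sox2 held 27, more than 91.4% of windows. Kcnj10 held 17. The median over all windows was 6 CpG. Apoe has entries for 3 starts, and the windows of the other two held 9 and 10. The 2 members that were higher in the mutant by at least 1.5-fold, Slc1a3 and Apoe, had the fewest CpG of the 5, but methylation was not measured here, and 5 windows allow no more than this description. The DNA letters bound by RBPJ, the transcription factor of the Notch pathway (TGGGAA), and by SOX proteins (AACAAT) were searched on both strands. Neither occurred in any window of the 5 members, against 21.6% and 9.42% of all windows. The N-box that HES proteins bind (CACNAG) occurred in the printed windows of Glul, Slc1a3 and Apoe, and in 36.7% of all windows.

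**Figure D1:**
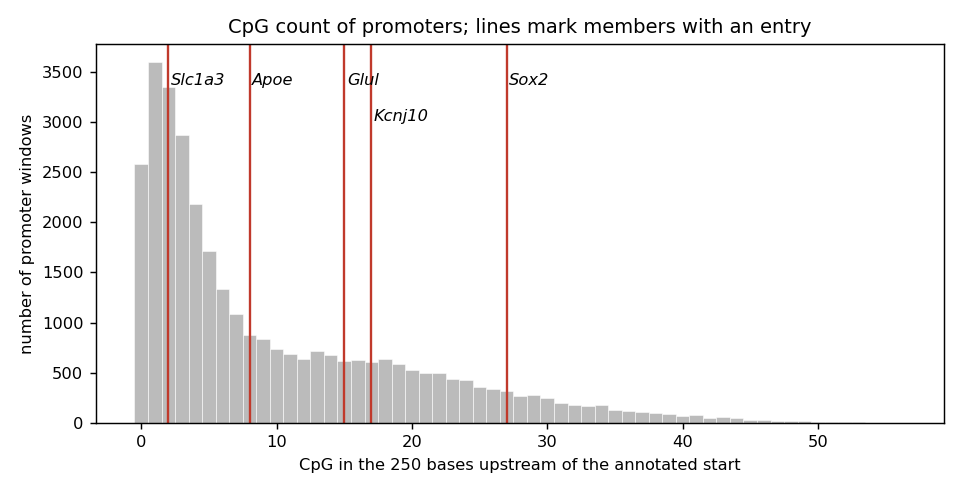
Number of RefSeq promoter windows (vertical axis) by the number of CpG in the 250 bases upstream of the annotated start (horizontal axis). Red lines mark the 5 members whose windows were used (Apoe at the start farthest upstream). Slc1a3 lies at 2 CpG, below the median of 6, and Sox2 at 27.

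The members did not move as a block. By a log2 ratio of mutant over control computed after adding 1 FPKM to both values, Slc1a3 and Apoe were higher by at least 1.5-fold, Glul was lower by at least 1.5-fold, and the other 7 lay between. Among all measured genes, 4.29% were higher and 3.04% lower by the same rule. Among those of at least 5 FPKM in 1 library, as all members are, the shares were 3.34% higher and 2.59% lower. No member differed by 2-fold, a size reached by 1.84% of measured genes upwards and 0.648% downwards. The median log2 ratio of the 10 was 0.19, against -2.0e-06 over all measured genes, whose quartiles were -0.16 and 0.15. Ratios lay above 0 for 8 members, against 50% of measured genes, and 2 of those 8, Sox2 and Kcnj10, had counting intervals that include equality. In the authors' deposited table, 69 of 30608 transcripts were called as different, and no member was among them. The q-value there was 0.999 for each of the 10, and the lowest unadjusted p-value was 0.0308, for Slc1a3. In the authors' second deposited table, which also called no member, Slc1a3 had an unadjusted p-value of 0.0176 and a q-value of 0.829, and the other 9 had a q-value of 0.999.

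**Figure D2:**
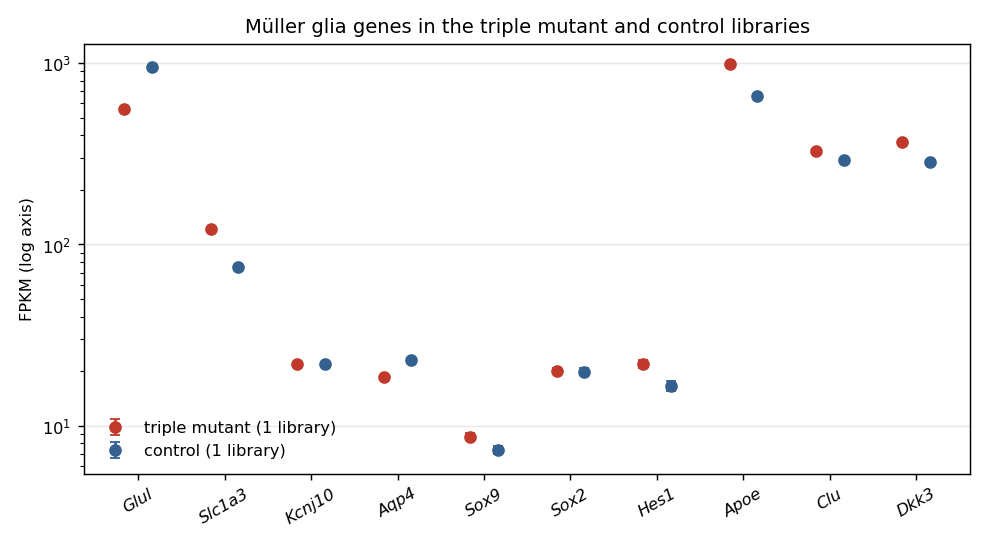
FPKM (log axis) of the 10 members in the triple mutant library (red, left of each pair) and the control library (blue, right), with bars for 95% counting intervals, most of them smaller than the points. Glul was 561 in the mutant and 952 in the control, whereas Apoe was 988 in the mutant and 655 in the control.

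The transcripts of Slc1a3 and Glul, whose products take up and convert glutamate, differed in opposite directions. Slc1a3 encodes GLAST, the main glutamate transporter of Müller glia, and Glul encodes glutamine synthetase, the enzyme that joins ammonia to the glutamate so taken up. Slc1a3 (chromosome 15, 8634124 to 8710764, minus strand) had 122 FPKM (120.1 to 123) in the mutant library and 75.6 (74.3 to 76.8) in the control. That is a 1.61-fold higher level in the mutant (1.58 to 1.64), a log2 ratio of 0.68 that 3.35% of measured genes exceeded. Glul (chromosome 1, 153899944 to 153909723, plus strand) had 561 FPKM (557 to 565) in the mutant and 952 (947 to 958) in the control. The mutant level was 58.9% of the control (58.4 to 59.4), a log2 ratio of -0.76, and 1.48% of measured genes had a lower one. By level, Glul stood at rank 39 of 13280 in the mutant library and at rank 13 in the control, and so was among the most abundant transcripts in both. There were 4.61 FPKM of Glul for each FPKM of Slc1a3 in the mutant (4.55 to 4.68) and 12.6 in the control (12.4 to 12.8). Glul shares 93 bases of exon with the microRNA gene Mir8114 on its own strand, which no strand setting would separate, and 116 with Teddm2 on the opposite strand, and strand use in the counting is not stated in the sources used here.

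Most genes around these 2 lay within the size rule. Of 17 listed genes of glutamate, GABA and glutamine transport and metabolism, all were measured, 2 were higher by at least 1.5-fold, 0 were lower, and the median log2 ratio was -0.052. The 2 were Slc7a11, the cystine and glutamate exchanger, with 5.83 FPKM in the mutant and 2.20 in the control, and Slc1a4, a neutral amino acid transporter, with 10.3 in the mutant and 6.12 in the control. The glutamine transporter gene Slc38a1, with 42.8 FPKM in the mutant and 50.6 in the control, lay below the size rule.

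The potassium channel gene had nearly the same level in both libraries, and the water channel gene was somewhat lower in the mutant. Kcnj10 encodes Kir4.1, the inward rectifier through which Müller glia pass potassium, and Aqp4 encodes the water channel found with it in the glial endfeet. Kcnj10 (chromosome 1, 172341210 to 172374085, plus strand) had 22.0 FPKM (21.5 to 22.6) in the mutant and 21.9 (21.3 to 22.5) in the control, 1.01-fold (0.971 to 1.04). Aqp4 (chromosome 18, 15389496 to 15410982, minus strand) had 18.6 FPKM (18.1 to 19.1) in the mutant and 23.1 (22.5 to 23.7) in the control. The mutant level of Aqp4 was 80.7% of the control (77.7 to 83.8), and apart from Glul no other member was lower in the mutant. Its log2 ratio was -0.30, and 12.9% of measured genes had a lower one. Aqp4 stood at 0.845 FPKM per FPKM of Kcnj10 in the mutant (0.815 to 0.877) and 1.05 in the control (1.01 to 1.09). RefSeq lists 9 curated Aqp4 transcripts and the table used here 1, so long and short forms of the channel could not be separated.

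Of 19 listed genes for other potassium channels, aquaporins, sodium pumps and the dystrophin scaffold that anchors both channels, 16 were measured. Of these 1 was higher by at least 1.5-fold, 3 were lower, and the median log2 ratio was -0.073. The 3 lower were Aqp1, a water channel also present in ciliary epithelium (13.1 FPKM in the mutant and 30.04 in the control), Kcnj13, a channel also used in pigment epithelium (0.729 in the mutant and 1.96 in the control), and Kcnj2, another inward rectifier (1.54 in the mutant and 2.91 in the control). Pigment epithelium and ciliary markers were lower too: 9 of 10 measured were lower by at least 1.5-fold, and the list summed to 8.71 FPKM in the mutant and 136 in the control, with Tyr near 0 in the mutant at 0.0392 FPKM. Lens markers, 10 of 10 lower, summed to 12.9 FPKM in the mutant and 213 in the control. Their part in the lower levels of Aqp1 and Kcnj13, and in those of Glul and Aqp4, was not tested.

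None of the 3 transcription factor genes passed the size rule, and Hes1 was farthest from equality. Sox9 and Sox2 encode HMG-box factors that progenitors use and Müller glia retain, and Hes1 encodes the repressor that Notch signalling induces. Hes1 (chromosome 16, 30064384 to 30067796, plus strand) had 21.9 FPKM (20.9 to 23.0) in the mutant and 16.5 (15.6 to 17.6) in the control, 1.32-fold higher (1.22 to 1.43). Its log2 ratio of 0.39 was exceeded by 7.72% of measured genes. Sox9 (chromosome 11, 112782224 to 112787760, plus strand) had 8.72 FPKM (8.33 to 9.11) in the mutant and 7.36 (6.98 to 7.76) in the control, 1.18-fold (1.10 to 1.27). It was the lowest of the members in both libraries. Sox2 (chromosome 3, 34650405 to 34652461, plus strand) had 20.02 FPKM (19.2 to 20.9) in the mutant and 19.9 (19.0 to 20.8) in the control. At 1.01-fold (0.946 to 1.07) the 2 libraries could not be told apart at this depth. The CpG-rich Sox2 window printed above lies upstream of a RefSeq start at 34649995, which precedes the gene start given here. Sox2 lies inside the noncoding gene Sox2ot on the same strand, with no shared exon, and Sox2ot had 2.93 FPKM in the mutant and 2.44 in the control.

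Of 35 listed genes of the Notch pathway and of glial and progenitor transcription, 31 were measured. By the 1.5-fold rule 4 were higher, 1 was lower and 26 lay between, and the median log2 ratio was -0.0054. Among the 4 higher genes were the receptor gene Notch1, with 12.7 FPKM in the mutant and 7.55 in the control, the Notch target Hey2 (8.66 in the mutant and 5.34 in the control), and Id3, an inhibitor of basic helix-loop-helix factors (68.2 in the mutant and 43.8 in the control). The fourth was the SOX gene Sox8, with 19.0 FPKM in the mutant and 12.3 in the control. The 1 lower gene was Hes5, the other Notch-induced repressor of Müller glia, with 4.09 FPKM in the mutant and 8.45 in the control. Of the HES genes, Hes1 had a log2 ratio of 0.39, Hes6, which counteracts Hes1, one of 0.27, and Hes5 one of -0.89.

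Of the lipoprotein genes, Apoe was higher in the mutant and Clu less so. Apoe encodes apolipoprotein E, the main lipid carrier that glia secrete, and Clu encodes clusterin, also called apolipoprotein J, an extracellular chaperone. Apoe (chromosome 7, 19696109 to 19699188, minus strand) had 988 FPKM (981 to 996) in the mutant and 655 (649 to 661) in the control, 1.51-fold higher (1.49 to 1.53). Its log2 ratio of 0.59 was just past the 1.5-fold rule, and 4.22% of measured genes exceeded it. Apoe stood at rank 14 by level in the mutant library and at rank 28 in the control. Clu (chromosome 14, 65968483 to 65981547, plus strand) had 327 FPKM (323 to 330.2) in the mutant and 292 (288 to 295) in the control, 1.12-fold (1.10 to 1.14). The mutant library held 3.03 FPKM of Apoe for each FPKM of Clu (2.99 to 3.07), and the control 2.25 (2.21 to 2.28).

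Microglia also make Apoe, and their markers were higher in the mutant. Of 16 listed microglia and macrophage genes, 15 were measured, 14 were higher by at least 1.5-fold and 0 were lower. The list summed to 209 FPKM in the mutant and 61.4 in the control, with C1qa, a complement subunit, at 31.2 in the mutant and 5.84 in the control and the lysozyme gene Lyz2 at 10.8 in the mutant and 0.851 in the control, and no listed gene was near 0 in either library. The part of microglia in the Apoe level was not tested. Of 21 listed genes of lipoproteins, their receptors and lipid transport, 19 were measured, 3 were higher by at least 1.5-fold and 1 was lower, and the list's median log2 ratio was 0.070. The highest ratio was that of Apoc1, an apolipoprotein gene 3.45 kb from Apoe on chromosome 7, with 15.6 FPKM in the mutant and 2.62 in the control. On the other side of Apoe, at 2.13 kb, the mitochondrial import gene Tomm40 had 48.7 FPKM in the mutant and 46.0 in the control, and was looked up because of its position. Trem2, a microglial receptor for lipids and for apolipoproteins, had 6.55 FPKM in the mutant and 1.70 in the control. Lcat, which esterifies cholesterol on lipoproteins, had 4.14 in the mutant and 1.61 in the control, whereas the phospholipid transfer gene Pltp had 10.8 in the mutant and 21.0 in the control.

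Dkk3 encodes a divergent, secreted member of the Dickkopf family, whose other members block Wnt signalling at its co-receptors. Dkk3 (chromosome 7, 112116017 to 112159057, minus strand) had 369 FPKM (366 to 372) in the mutant and 285 (283 to 288) in the control, 1.29-fold higher (1.28 to 1.31). The log2 ratio of 0.37 lay below the size rule, and 8.28% of measured genes had a higher one. Dkk1 and Dkk4, which bind the co-receptors, were under 0.1 FPKM in both libraries. Of 28 listed Wnt antagonists, pathway components and target genes, 19 were measured, 4 were higher by at least 1.5-fold, 0 were lower, and the median log2 ratio was 0.17. The other 15 lay between, among them the Wnt target Axin2, named because it is a common readout of the pathway, with 11.5 FPKM in the mutant and 11.8 in the control. Of these, the lowest ratios were those of the Wnt antagonist genes Frzb, with 8.07 FPKM in the mutant and 12.6 in the control, and Sfrp1, with 1.90 in the mutant and 3.24 in the control. Of the 4 higher genes, Nkd1, a feedback antagonist, had 33.9 FPKM in the mutant and 10.04 in the control. The cyclin gene Ccnd1 had 26.0 in the mutant and 12.2 in the control, Notum, which encodes an enzyme that inactivates Wnt proteins, had 4.06 in the mutant and 1.66 in the control, and the transcription factor gene Lef1 had 3.28 in the mutant and 1.42 in the control.

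**Figure D3:**
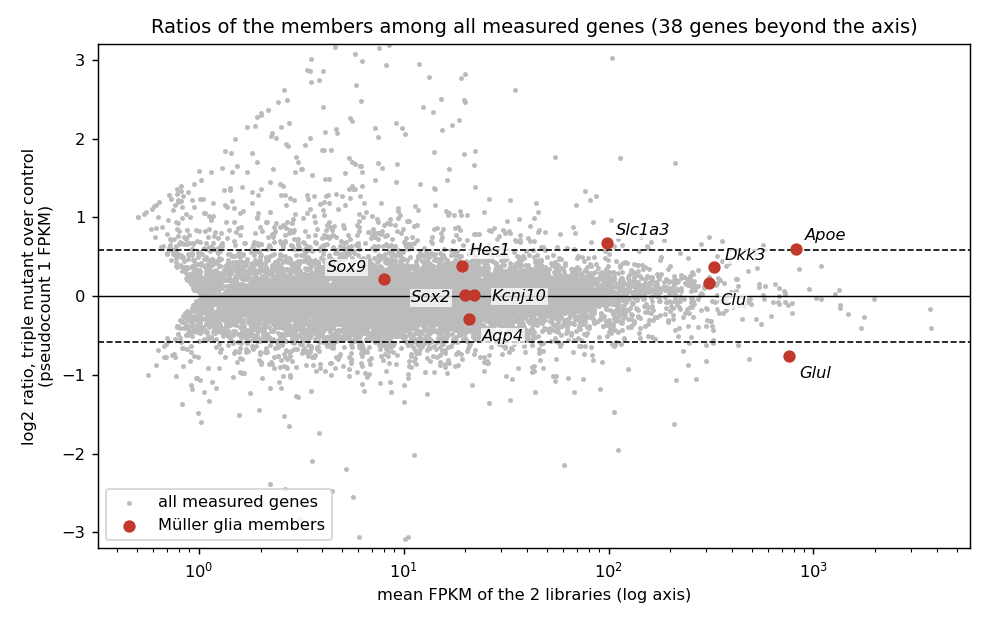
Log2 ratio of triple mutant over control, after adding 1 FPKM to each value (vertical axis), against the mean FPKM of both libraries (log axis) for 13280 measured genes in grey and the 10 members in red, with dashed lines at 1.5-fold. Slc1a3 and Apoe lie above the upper line, Glul lies below the lower one, and 38 genes fall beyond the axis.

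The order of the members by level changed at several places. In the mutant library it ran Apoe, Glul, Dkk3, Clu, Slc1a3, Kcnj10, Hes1, Sox2, Aqp4 and Sox9. In the control it ran Glul, Apoe, Clu, Dkk3, Slc1a3, Aqp4, Kcnj10, Sox2, Hes1 and Sox9. Between neighbours in these orders, Kcnj10 and Hes1 in the mutant library did not differ beyond counting error, with a ratio of 1.005 (0.951 to 1.06). Other neighbours were close but had ratios whose intervals excluded 1. Hes1 stood at 1.10 FPKM per FPKM of Sox2 in the mutant (1.03 to 1.17), Dkk3 at 0.978 per FPKM of Clu in the control (0.963 to 0.994), and Aqp4 at 1.05 per FPKM of Kcnj10 in the control, as given above. Apoe stood at 1.76 FPKM per FPKM of Glul in the mutant (1.75 to 1.78) and 0.688 in the control (0.680 to 0.696). The members summed to 2457 FPKM in the mutant and 2348 in the control, 1.05-fold, as the lower Glul offset the higher levels of others. Without Glul and Apoe the other 8 summed to 908 FPKM in the mutant and 741 in the control, 1.23-fold.

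Other genes listed as markers of Müller glia lay in both directions, and not all of them are particular to these cells. Of 36 listed, 35 were measured, 11 were higher by at least 1.5-fold and 4 were lower, and the median log2 ratio was 0.28. Crym, a thyroid hormone-binding crystallin, had 323 FPKM in the mutant and 99.4 in the control, and the retinol dehydrogenase gene Rdh10 had 95.8 in the mutant and 42.5 in the control. Rgr, an opsin also found in pigment epithelium, had 1.37 FPKM in the mutant and 19.0 in the control. The prostaglandin D synthase gene Ptgds had 21.6 in the mutant and 99.3 in the control. The remaining lower genes were Spc25, with 36.3 in the mutant and 74.7 in the control, and Abca8a, with 27.0 in the mutant and 41.7 in the control. Pigment epithelium and ciliary markers were lower in the mutant, as given above, and their part in the levels of these 4 lower genes was not tested. Rlbp1, the retinaldehyde-binding protein of Müller glia and pigment epithelium, and the intermediate filament gene Vim, both looked at as defining markers and not by size, were high in both: Rlbp1 had 343 FPKM in the mutant and 309 in the control, and Vim had 154 in the mutant and 124 in the control.

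Astrocytes express several of the members. Of 7 listed astrocyte markers 6 were measured, 2 of them higher by at least 1.5-fold and 0 lower. Gfap, the filament protein of astrocytes and of Müller glia under stress, had 25.6 FPKM in the mutant and 7.72 in the control, and Aldh1l1 had 13.1 in the mutant and 5.67 in the control. The other 4 measured lay within the 1.5-fold rule, in both directions. Pdgfra had 5.90 FPKM in the mutant and 3.95 in the control, and S100b had 7.15 in the mutant and 6.35 in the control. Gja1 had 10.4 in the mutant and 11.3 in the control, and Slc7a10 had 0.438 in the mutant and 1.09 in the control. The list summed to 63.5 FPKM in the mutant and 36.5 in the control, and no listed gene was near 0 in either. The part of astrocytes in the levels of the members was not tested. Of 14 measured photoreceptor markers, 2 were higher by at least 1.5-fold and 5 lower. Their median log2 ratio was -0.26, with a sum of 11258 FPKM in the mutant and 13102 in the control, and the lowest ratio belonged to Opn1sw, at 45.0 in the mutant and 177 in the control. Of 12 measured endothelium and pericyte markers, 1 was lower by at least 1.5-fold, Slco1a4, at 1.20 FPKM in the mutant and 3.70 in the control, and 0 were higher. Of 8 listed oligodendrocyte markers, 3 were measured and none passed the rule. Cnp had 22.5 FPKM in the mutant and 15.6 in the control, Mbp had 8.36 in the mutant and 9.07 in the control, and Mobp and Olig2 were listed at 0 in both.

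**Figure D4:**
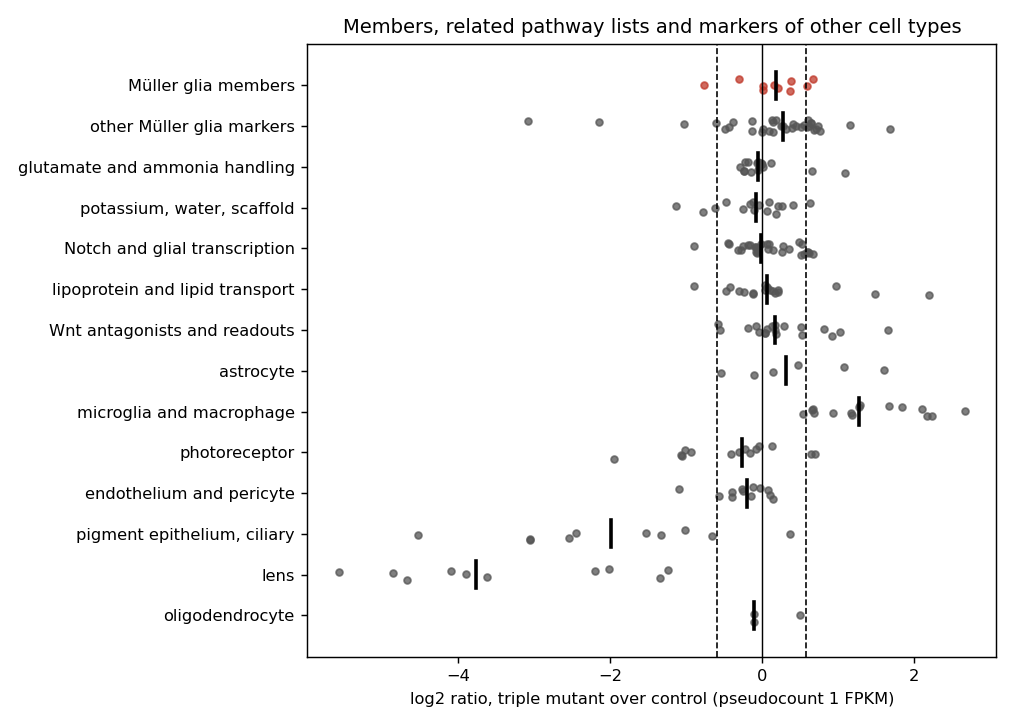
Log2 ratio of triple mutant over control (horizontal axis) for the 10 members (red) and the measured genes of 13 other lists (grey, 1 point per gene, spread vertically for legibility), with black bars at the medians and dashed lines at 1.5-fold. The members centre on 0.19, the microglia list on 1.28 and the lens list on -3.76.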

How the data were processed

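Retinal RNA was sequenced from 1 triple mutant and 1 control library. The authors aligned reads to mm10 with TopHat2 2.0.8 and ran Cuffdiff 2.1.1 on both libraries, as the submitters' processing notes list; annotation, layout and strandedness are not stated in the sources used here. Both deposited tables give FPKM for each RefSeq transcript, in Cuffdiff's layout per the file headers. They also hold the authors' log2 fold change, test score, p-value and q-value. The second table has no symbols and names the same 2 libraries, so it is a second estimate and no replicate.

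In the table that has symbols, FPKM was summed per gene. Genes needed 1 transcript with status OK and none failed or with excessive data. Size was log2 of mutant over control after adding 1 FPKM, which understates the ratio of low genes. Measured meant at least 1 FPKM in 1 library, and near 0 meant under 0.1. Up to 4 genes per list with the largest ratios were named. Sox8, Hes6, Axin2, Frzb, Sfrp1, Rlbp1, Vim, Spc25, Abca8a, S100b, Gja1, Tomm40, Apoc4 and Apoc2 were chosen after their values were seen. Some listed genes are counted but not reported here by name. Fragments were recovered from the steps between low values of genes with 1 transcript and 3000 bases or more: 71.5% of 340 mutant and 74.2% of 349 control values were whole within 10% of a step, at the fragment length of 150 bases that maximised this share. Intervals are exact (Poisson for levels, Clopper-Pearson for ratios) at 95%. Gene coordinates are from GENCODE M21 (GRCm38), and promoter windows follow RefSeq starts. The size rule and step search were tested on simulated data. Members and the 13 lists were chosen with earlier results of these data known. Python 3.11.15, pandas 2.3.3, numpy 2.4.6, scipy 1.17.1 and matplotlib 3.10.9 were used.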

Additional observations from a re-analysis of the deposited data

How the results depend on the processing

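The 10 member ratios kept their sign with a pseudocount of 0.1 or 5 FPKM and in the second table. The other 4 alternatives (no filter on low values, a filter at 5 FPKM, centring on the median gene, and transcripts with status OK only) could not move them, as every member is above 5 FPKM with 1 OK transcript and the median ratio is near 0. Slc1a3 ran from 0.65 to 0.74, Apoe from 0.59 to 0.65 and Glul from -0.76 to -0.70, and the counts of members past 1.5-fold and 2-fold did not change. The second table raised every member's ratio by about 0.06, near its median shift of 0.06 over all genes. No paired analysis was possible because each group has 1 library, and for the same reason no library could be left out.

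Pathway counts depended more on the settings. With a pseudocount of 0.1 FPKM, 2 Notch and glial transcription genes and 2 Wnt genes were lower by 1.5-fold, and the microglia median was 1.59. With 5 FPKM, 1 glutamate gene was higher, 1 potassium and water gene was lower, 0 Notch and glial transcription genes were higher and 0 lower, 2 Wnt genes, 6 other Müller markers and 9 microglia genes were higher, and the microglia median was 0.73. Among genes of at least 5 FPKM, the potassium and water median was 0.062 with 1 gene lower, 2 Wnt genes were higher, and the microglia median was 1.76. In the second table the potassium and water median was 0.070. The cause of these shifts was not tested, except that pseudocounts act most on low genes by construction. Counting error limits the ratios of Sox2 and Kcnj10, whose intervals include 1, and a difference between 2 libraries cannot be set against variation between animals.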
